A study of Mus musculus with 1617 samples.

Results

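Macrophages of the postnatal day 14 (P14) mouse brain that carried much Apoe transcript were set against those with none, in hippocampus, thalamus and visual cortex. The cells were chosen on Apoe itself: a cell was called Apoe-high at 100 TPM or more and Apoe-negative below 1 TPM, where TPM is a transcript level per length, scaled to a fixed total per cell. Of the 428 single-read P14 cells in a series of 1617 cells, 220 were Apoe-high and 76 were Apoe-negative, and these were compared; the others lay between. The sort had kept cells with CD45, CD11b and F4/80 and without Ly6C, and they were captured singly on Fluidigm C1 chips and sequenced as 1 library per cell. Strain, genotype, sex and treatment are not named for any of these cells, and both arms shared the age, the sort and the capture system. No animal or litter is named either, so each region stood as 1 sample without replicates and nothing was tested; an SD given with a ratio is the spread over the 3 regions.

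Apolipoprotein E is a secreted protein that carries cholesterol and phospholipid between cells. The transporters ABCA1 and ABCG1 load it with lipid, lipoprotein receptors take the particles up, and the microglial receptor TREM2 can bind them. Liver X receptors, which sense sterols, drive transcription of Apoe, Abca1 and Abcg1. In microglia, Apoe is low in the adult resting state and is known as a leading gene of the disease-associated state and of microglia in developing axon tracts.

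The arms differed in size between regions. Hippocampus held 65 Apoe-high cells (55.1%, exact Clopper-Pearson 95% interval 45.7 to 64.3%), thalamus 57.4% of 190 cells (50.01 to 64.5%) and visual cortex 46 of 120 (38.3%, 29.6 to 47.7%). Apoe-negative cells numbered 16 (13.6%, 7.95 to 21.1%), 25 (13.2%, 8.70 to 18.8%) and 35 (29.2%, 21.2 to 38.2%) in the same order. These intervals, and those of all shares below, cover counting error over cells only. All 76 Apoe-negative cells were listed at exactly 0. In Apoe-high cells Apoe had a lowest value of 102.93, 106.66 and 105.08 TPM, a median of 706.7, 1356.2 and 763.8 TPM and a highest of 16384, 12432 and 9574 TPM in hippocampus, thalamus and visual cortex. Just outside the limits, the lowest values above 1 TPM were 1.4, 1.4 and 1.28 TPM, and the highest below 100 TPM were 98.32, 99.22 and 96.97 TPM. Apoe lies on chromosome 7, 19696109 to 19699188, minus strand (GRCm38, GENCODE M21 annotation, used for all positions below).

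**Figure D1:**
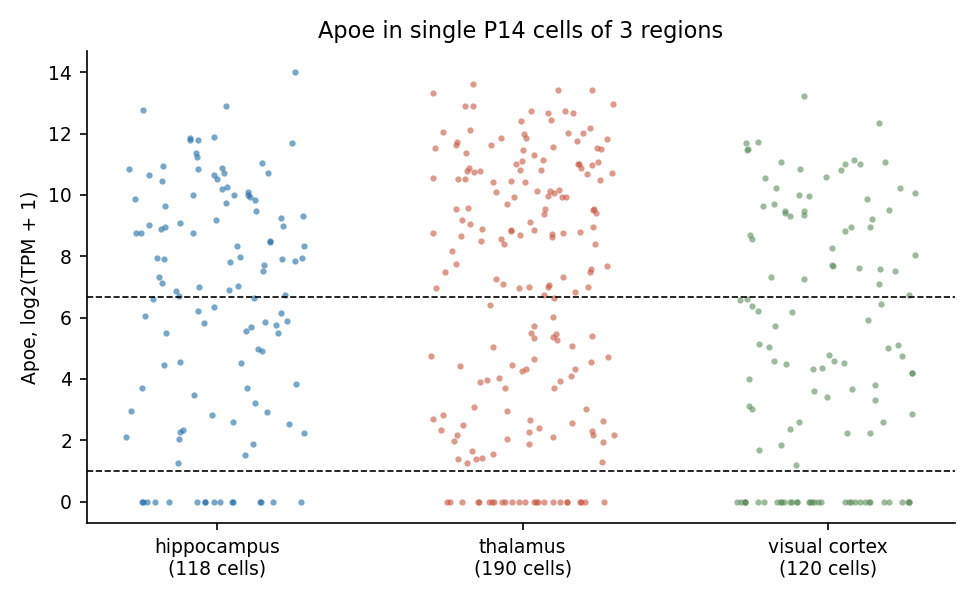
Apoe in each of the 428 single-read P14 cells, as log2(TPM + 1), by region; dashed lines mark 1 and 100 TPM. Cells spread over the whole range in each region, with 16, 25 and 35 cells at 0.

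Both arms carried the defining genes of microglia. Every one of the 220 Apoe-high and 76 Apoe-negative cells had at least 2 of 9 microglia markers at 100 TPM or more. The summed level of the 9 markers had medians of 33868, 32628 and 30773 TPM in the Apoe-high and 31317, 31656 and 33494 TPM in the Apoe-negative cells of hippocampus, thalamus and visual cortex. Of 11 markers of border-associated macrophages, 2 or more stood at 100 TPM in 8 Apoe-high cells and 1 Apoe-negative cell, and no cell of either arm had 2 of 12 astrocyte markers at that level. The summed border-associated macrophage markers had medians of 5.43, 5.48 and 23.4 TPM in Apoe-high and 13.3, 10.9 and 16.46 TPM in Apoe-negative cells. Means of the same sum were 146.3, 121.99 and 202.03 TPM in Apoe-high and 147.2, 111.7 and 228.9 TPM in Apoe-negative cells. The summed astrocyte markers had medians of 11.2, 7.24 and 9.89 TPM and 6.83, 5.34 and 7.64 TPM, with Gja1, Aldoc, Mlc1, Ntsr2 and Sparcl1 at 0 in both arms. The part of these cell types in the results below was not tested, beyond leaving out the cells with 2 markers. Erythroid, mural, choroid plexus, dendritic and oligodendrocyte precursor markers gave no gene that averaged 5 TPM in either arm. That level was met by 5 oligodendrocyte and 2 monocyte markers. It was also met by 1 marker each of neutrophils, neurons, endothelial cells, T or NK cells and B cells. The B cell marker Cd79b averaged 123.2 and 123.6 TPM in Apoe-high and Apoe-negative cells. The summed oligodendrocyte markers reached 6906 TPM in 1 thalamic Apoe-high cell. Genes per cell, at 1 TPM or more, had medians of 3929, 4158 and 4203 in Apoe-high and 3522, 4043 and 3876 in Apoe-negative cells. Cell titles formed 9 unbroken runs, 3 per region, whose meaning is not given, and the Apoe-high share of a run ranged from 22 to 77.9%.

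Each gene was compared within a region as log2 of the ratio of mean TPM, Apoe-high over Apoe-negative, with 1 TPM added to each mean, and the 3 ratios were averaged. A gene counted as measured at a mean of 5 TPM in either arm, and as higher or lower at 1.5-fold or more. Ratios leaned upward over the whole transcriptome. Of 11762 measured genes 49.6% were higher and 14% lower, median 0.57, and 12.2% were higher and 1.75% lower in every region. Regional medians were 0.69, 0.45 and 0.30 in hippocampus, thalamus and visual cortex. The Apoe-high arm held more cells in each region, and the arms were nearest in size in visual cortex. In paired-end P14 cells of visual cortex, read below, the Apoe-negative arm was larger, and 33.1% of genes were higher and 35.9% lower. The part of arm size in the upward lean was not tested. Among the 3771 genes at 50 TPM or more the median was 0.32, with 37.3% higher, 13.4% lower, 7.93% higher in every region and 2.49% lower in every region. The difference of mean log2(TPM + 1), a second measure, gives less weight to a few cells with very high values. By that measure the median was 0.15 over all measured genes and 0.34 at 50 TPM or more, and 3.16% of genes were higher and 0.119% lower in every region (8.67% and 0.318% at 50 TPM or more). Genes higher in every region by both measures made up 7.12% of those by the ratio and 27.4% of those by mean log2 values. Calls by the ratio in every region moved when single cells were left out. Without the highest Apoe-high cell of each gene in each region, an alternative chosen after seeing the data, 3.77% of genes were higher in every region. Without the highest Apoe-negative cell 0.0595% were lower in every region. Leaving out cells of 1 arm in this way can only lower these 2 shares. Without the highest cell in both arms, 25.7% of the genes then measured were higher and 0.347% lower in every region. Counts in the gene lists below are read against these shares.

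Cd63, a tetraspanin of late endosomes, lysosomes and exosomes (chromosome 10, 128900989 to 128912822, plus strand), ranked first of all measured genes by its smallest regional difference of mean log2 values. In hippocampus its median was 67.6 TPM (0 to 3689.7) in Apoe-high and 0 TPM (0 to 87.6) in Apoe-negative cells, with the lowest and highest cell in brackets. Thalamic cells had 87.4 TPM (0 to 4661) against 0 TPM (0 to 732.8), and cells of visual cortex 159.1 TPM (0 to 4842) against 0 TPM (0 to 2388.1), Apoe-high first. The median Apoe-negative cell was thus at 0 in each region, while single cells of both arms overlapped. Cd63 averaged 589.2 and 62.7 TPM over regions, a log2 ratio of 3.60 ± 1.23 (SD over 3 regions), with 4.95, 3.29 and 2.56 in hippocampus, thalamus and visual cortex. It was at 1 TPM or more in 67.7% of 220 (61.1 to 73.9%) Apoe-high and 27 of 76 (35.5%, 24.9 to 47.3%) Apoe-negative cells, and at 100 TPM or more in 49.5% and 10.5% of them. Its ratio was 4.16 within 3 bands of genes per cell and 3.96 within title runs. It was 1.53 where cells below 10 TPM of Apoe were taken as negative.

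Abcg1 encodes a transporter that moves cholesterol onto lipoprotein particles (chromosome 17, 31057675 to 31117988, plus strand). Its median was 169.96 TPM (0 to 3305.2) against 45.3 TPM (0 to 570.3) in hippocampus, Apoe-high cells first, 47.2 TPM (0 to 1763) against 0.890 TPM (0 to 900.5) in thalamus and 122.4 TPM (0 to 3424) against 3.31 TPM (0 to 466) in visual cortex. Single cells overlapped from 0 upward. The highest Apoe-high cell stood above the highest Apoe-negative cell in each region, but the Apoe-high arm also held more cells there, which favours a higher maximum. The means were 424 and 87.05 TPM, a ratio of 2.34 ± 0.65 (1.80, 2.15 and 3.06 in the 3 regions), and the difference of mean log2 values was 2.26. At 1 TPM or more Abcg1 was found in 79.1% of 220 (73.1 to 84.3%) Apoe-high and 46 of 76 (60.5%, 48.7 to 71.6%) Apoe-negative cells.

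Abca1, the partner transporter that passes cholesterol to lipid-poor apolipoproteins (chromosome 4, 53030787 to 53159895, minus strand), stood lower in both arms. Its medians were 10.01 TPM (0 to 1592) against 9.81 TPM (0 to 439) in hippocampus, 5.5 TPM (0 to 2660.1) against 0.190 TPM (0 to 190.3) in thalamus and 13.6 TPM (0 to 1564) against 5.24 TPM (0 to 338) in visual cortex. The medians lay close together in hippocampus, and the ranges overlapped in all 3 regions. Means of 114.4 and 37.8 TPM gave 1.75 ± 0.73 (1.06, 2.53 and 1.67), and differences of mean log2 values were 0.28, 1.77 and 1.44.

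Of 15 genes for Apoe receptors and lipid loading, 10 were measured. Of these 5 were higher and 3 lower (median 0.51), and 2 were higher in every region, Abca1 and Abcg1. Trem2, a receptor for lipids and lipoproteins (chromosome 17, 48346401 to 48354147, plus strand), averaged 1027 and 644 TPM (0.66 ± 0.34). Its medians were 835 TPM (0 to 3572) against 541.97 TPM (0 to 2811.9) in hippocampus, 597.1 TPM (0 to 9135) against 169.1 TPM (0 to 5568) in thalamus and 694.8 TPM (6.46 to 6054) against 166.9 TPM (0 to 2212) in visual cortex. The median was higher in the Apoe-high cells of each region, over ranges that overlapped. The signalling adaptor gene Tyrobp averaged 3114 and 2618.5 TPM, under 1.5-fold (0.25 ± 0.05), and its mean log2 values differed by 0.81. The endocytic receptor gene Lrp1 stood at 153.5 and 92.1 TPM (0.81 ± 0.94, with -0.26 in visual cortex), and at -0.08 with negative cells taken below 10 TPM of Apoe. The lipoprotein receptor gene Scarb1 averaged 36.1 and 19.1 TPM (1.98 ± 1.94).

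Among 11 measured genes of the liver X receptors, their partners and targets, 7 were higher and 0 lower (median 1.33, and 0.40 by mean log2 values), with 2 higher in every region, again Abca1 and Abcg1. At 50 TPM or more the same 2 genes of 6 were higher over regions, a share near the 37.3% of all genes. These 2 were also higher in every region, against 7.93% of all genes there. By mean log2 values only Abcg1 was higher in every region. Mylip, a target that encodes a ubiquitin ligase, averaged 172.6 and 151.9 TPM (0.23 ± 0.43). Cholesterol synthesis genes were higher in 8 and lower in 2 of 17 (median 0.48, below that of all genes). Fdps, an enzyme gene of the isoprenoid steps, averaged 26.4 and 2.78 TPM but was seen in only 13 of 220 and 2 of 76 cells, and Pmvk, phosphomevalonate kinase, averaged 70.3 and 17.3 TPM (2.31 ± 1.86). Of 16 genes for lysosomal lipid and lipid droplets 6 were higher and 0 lower (median 0.49), among them the triglyceride lipase gene Pnpla2 (92.7 and 25.9 TPM, 1.87 ± 1.14).

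The chromosomal neighbours of Apoe were at low level. Apoc1, another apolipoprotein gene, averaged 10.7 and 11.9 TPM and was seen in 13 of 220 and 1 of 76 cells, with ratios in opposite directions (2.61, 4.66 and -3.27). Apoc2 averaged 0.294 TPM in Apoe-high cells and was listed at 0 in Apoe-negative cells, and Apoc4 was listed at 0 in both arms. Tomm40, a mitochondrial import channel gene, averaged 1.14 and 3.04 TPM. Of the 3 measured neighbours and apolipoproteins only the adhesion receptor gene Pvrl2 was higher in every region (18.05 and 1.49 TPM, 2.73 ± 0.41), in 32 of 220 and 5 of 76 cells.

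**Figure D2:**
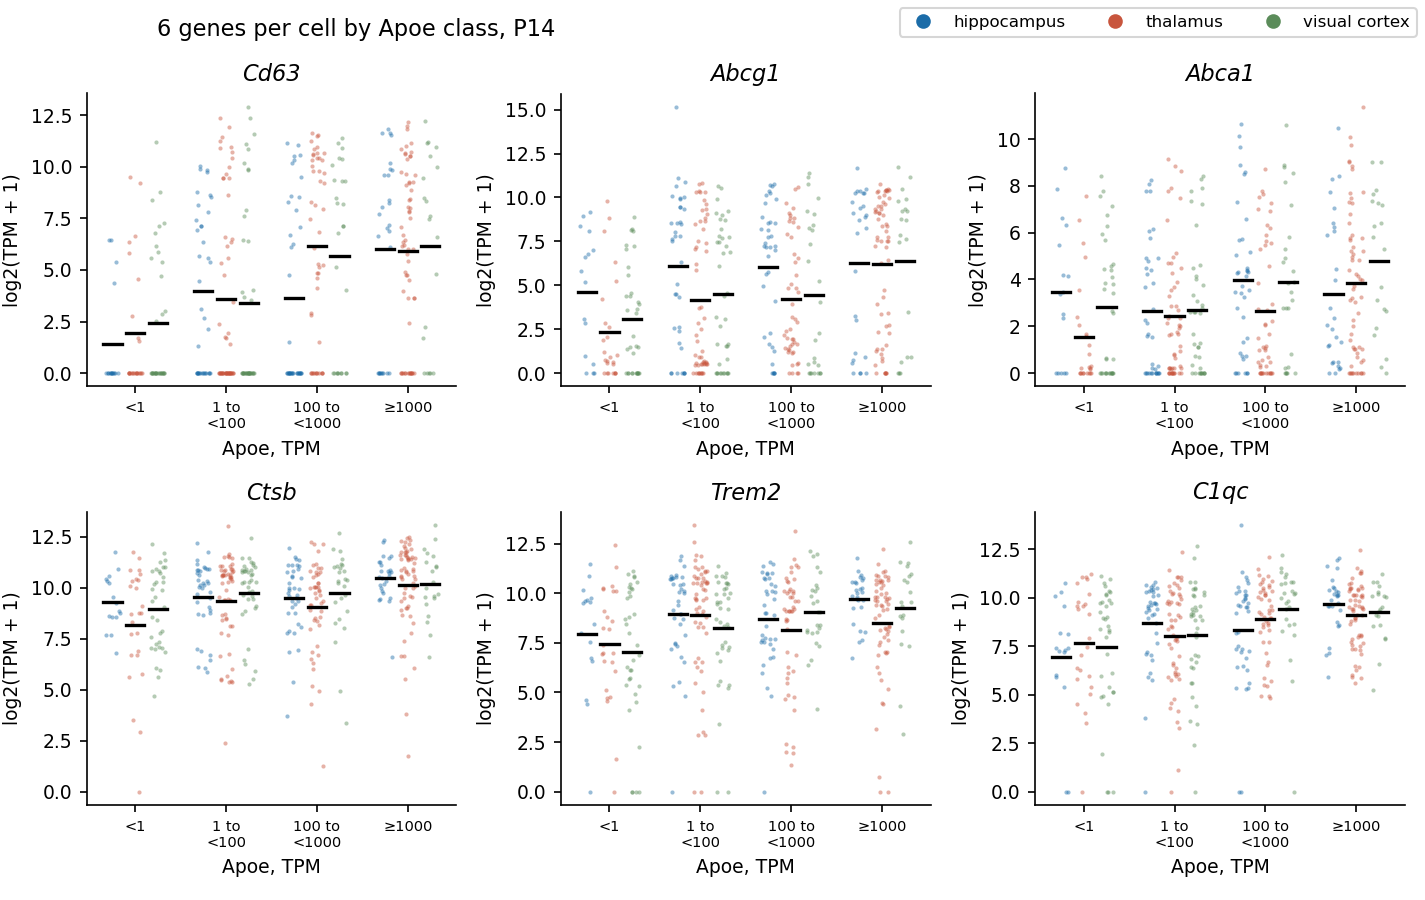
Level per cell, as log2(TPM + 1), of Cd63, Abcg1, Abca1, Ctsb, Trem2 and C1qc in the 428 P14 cells, by Apoe class and region (colours); black bars are means of the log2 values. The bar for Cd63 stands lowest in the Apoe class below 1 TPM in all 3 regions.

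The cells between the arms were also used to see whether levels followed Apoe in steps. In the classes below 1, 1 to below 100, 100 to below 1000 and 1000 TPM or more of Apoe, Cd63 averaged 62.7, 416, 519 and 696.7 TPM. The share of cells with Cd63 was 35.5, 49.2, 62.5 and 73.1%. Abcg1 averaged 87.05, 622, 312.8 and 546.7 TPM, with shares of cells of 60.5, 67.4, 78.6 and 79.6%. The mean of its second class rested on 1 hippocampal cell at 36557 TPM and was 296.03 TPM without that cell, below that of the third class. Without the highest cell of each class, an alternative chosen after seeing the data, the Abcg1 means were 75.5, 296.03, 282.7 and 497 TPM. Abca1 averaged 37.8, 40.9, 105.6 and 116.1 TPM, Ctsb, cathepsin B, 922, 1291, 1284 and 1929.6 TPM and Trem2 644, 1041, 979 and 1102 TPM. The lowest class is the Apoe-negative arm and the classes at 100 TPM or more make up the Apoe-high arm. Their order was thus largely set by the contrast that had picked out these genes. Only the class of 1 to below 100 TPM held other cells. Its mean lay above that of the lowest class for all 5 genes, though by little for Abca1. The same was not counted over all genes, and the order of the upper classes differed between the 5. Genes per cell were highest in the top class, with medians of 3846, 4002.5, 3886.5 and 4438.5; their part in these steps was not tested.

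Disease-associated microglia genes are often divided into those induced without and with Trem2. Of the 9 genes of the first list, 5 were higher, 0 lower and 1, Ctsb, was higher in every region (median 0.79). By mean log2 values 5 of the 9 were higher in every region: Tyrobp, Ctsb, Fth1, Timp2 and H2-D1. Ctsb, a lysosomal protease gene (chromosome 14, 63122462 to 63145923, plus strand), averaged 1598 and 922 TPM (0.79 ± 0.16), and its hippocampal ratio of 0.64 was 0.58, just under 1.5-fold, without the highest Apoe-high cell. Its medians were 1162.6 TPM (12.1 to 5178) against 537 TPM (109.02 to 3465) in hippocampus, 1102 TPM (1.37 to 5693) against 427 TPM (0 to 3504) in thalamus and 1271 TPM (9.17 to 8537) against 648 TPM (25.02 to 4461) in visual cortex. Medians of the Apoe-high cells were higher in each region, over ranges that overlapped. The ferritin heavy chain gene Fth1 averaged 1979.5 and 1128 TPM (0.98 ± 0.90), and the MHC class I gene H2-D1 767.6 and 262.1 TPM (1.82 ± 1.76; 3.73, 1.46 and 0.27). Lyz2, lysozyme, averaged 175.3 and 40.9 TPM (3.49 ± 3.11) but stood at -0.10 in hippocampus, and was found in 80 of 220 and 20 of 76 cells.

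Of the 22 measured genes of the Trem2-dependent list, which holds Trem2 itself, 14 were higher and 1 lower, and the median was 1.06. In every region 8 were higher (36.4% of the list, against 12.2% of all genes). Most of these 8 were at low level: at 50 TPM or more 4 were higher and 0 lower of 11, and only Cd63 was higher in every region. Of all genes at that level 37.3% were higher and 7.93% higher in every region, so the list stood near these shares. Of the 22, Cd63 and Cadm1 were still higher in every region without the highest Apoe-high cell of each gene. By mean log2 values 4 of 22 were higher in every region: Trem2, Cd63, Serpine2 and Ctsz. Ctsz, the protease cathepsin Z, averaged 1408.4 and 895 TPM (0.69 ± 0.22), and Serpine2, a secreted protease inhibitor gene, 962 and 647 TPM (0.57 ± 0.12). The adhesion gene Cadm1 averaged 46.9 and 15.6 TPM (1.72 ± 0.72). Csf1, a growth factor gene for microglia, averaged 22.6 and 3.63 TPM (2.88 ± 1.70) and was seen in 35 of 220 and 3 of 76 cells.

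Several genes best known from disease-associated cells were near absent from both arms. Itgax, which encodes CD11c, was seen in 2 of 220 Apoe-high and 0 of 76 Apoe-negative cells, and Gpnmb, a lysosomal glycoprotein gene, in 4 of 220 and 3 of 76. The osteopontin gene Spp1 was seen in 4 of 220 and 0 of 76 cells, the receptor gene Clec7a in 4 of 220 and 5 of 76 and the cystatin gene Cst7 in 10 of 220 and 1 of 76. Axl, a receptor gene of phagocytosis, was seen in 13 of 220 and 0 of 76 cells; 0 of 76 allows a share of up to 4.74% (upper Clopper-Pearson bound). Cd68, a better expressed lysosomal glycoprotein gene, averaged 1148.6 and 1593 TPM (-0.49 ± 0.53, and 0.01 without the highest Apoe-negative cells). The tetraspanin gene Cd9 averaged 711.5 and 972 TPM (-0.16 ± 1.13), but 1 thalamic Apoe-negative cell at 29291 TPM held 61.9% of the level of its arm. The difference of mean log2 values of Cd9 was 0.51, and its ratio was 0.54 without the highest cell of each arm. The lipoprotein lipase gene Lpl averaged 101.8 and 77.5 TPM (0.54 ± 1.06). A cell held on average 6.83, 6.95 and 6.83 of the 22 Trem2-dependent genes at 100 TPM or more when Apoe-high and 5.75, 5.44 and 5.06 when Apoe-negative, in the 3 regions in order. The same count was also higher in Apoe-high cells of each region for the other lists counted this way, and for the 18 homeostatic genes it was 15.2, 14.5 and 14.5 against 14.1, 13.4 and 13.7.

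Axon tract genes were higher in 11 and lower in 1 of 17 (median 0.79), 5 of them in every region: Igf1, Fabp5, Ctsb, Cd63 and Csf1. All 5 are also in the disease-associated lists, so these lists are not independent. Igf1, a growth factor gene that supports myelination, averaged 18.7 and 2.49 TPM (2.17 ± 1.36), and was seen in 28 of 220 and 12 of 76 cells. In visual cortex 1 Apoe-high cell held 90.3% of the Igf1 level of its arm and 1 held 65.7% in thalamus, and the difference of mean log2 values was 0.02 (-0.42, 0.32 and 0.15 in the 3 regions). The Igf1 ratio was 0.41 without the highest Apoe-high cell of each region, and with such cells left out only Cd63 of the 5 genes was higher in every region.

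Genes of homeostatic microglia showed smaller differences by the ratio. Of 18 measured, 2 were higher, 0 lower and 0 higher in every region, with a median of 0.22, below that of all genes. The purinergic receptor gene P2ry12 averaged 9539 and 9844 TPM (-0.04 ± 0.17), the transcription factor gene Sall1 293.6 and 303.5 TPM (-0.03 ± 0.14) and the fractalkine receptor gene Cx3cr1 3841 and 3425 TPM (0.23 ± 0.71). Tmem119, a membrane protein gene, averaged 954 and 649 TPM (0.61 ± 0.63) but stood at -0.02 in hippocampus. As a difference of mean log2 values the list's median was 0.60, above the 0.34 of all genes at 50 TPM or more.

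Lysosome and phagocytosis genes were higher in 9 and lower in 0 of 21 (median 0.39), with 5 higher in every region by mean log2 values: Lamp1, Cd63, Ctsb, Ctss and Ctsz. Lamp1, a lysosomal membrane protein gene, had medians of 33.7 TPM (0 to 2043) against 0.985 TPM (0 to 1775) in hippocampus, 30.3 TPM (0 to 2246) against 4.15 TPM (0 to 634) in thalamus and 42.05 TPM (0 to 2007) against 0 TPM (0 to 2683.1) in visual cortex (log2 ratio 0.94 ± 0.57), and was found in 180 of 220 (81.8%, 76.1 to 86.7%) Apoe-high and 42 of 76 (55.3%, 43.4 to 66.7%) Apoe-negative cells. Ctsd, cathepsin D, averaged 6284 and 4804 TPM, under 1.5-fold but alike in the regions (0.39 ± 0.07). Of 9 complement genes 3 were higher and 1 lower (median 0.46). C1qc, a chain of the initiator C1q, had medians of 778 TPM (0 to 13759) against 163.3 TPM (0 to 1742) in hippocampus, 672 TPM (27.8 to 5771) against 245.04 TPM (0 to 2379.7) in thalamus and 971 TPM (0 to 4817) against 371 TPM (0 to 2236) in visual cortex. Its median was again higher in the Apoe-high cells of each region, with overlapping ranges, and its means were 1053 and 559.5 TPM (0.94 ± 0.55). The other C1q chain genes C1qa (921 and 669 TPM, 0.48 ± 0.17) and C1qb (5566 and 4155 TPM, 0.46 ± 0.41) stayed under 1.5-fold. C3ar1, the C3a receptor gene, averaged 135.9 and 37.99 TPM (1.83 ± 0.34), with similar shares of cells, 60.9% of 220 (54.1 to 67.4%) and 47 of 76 (61.8%, 49.98 to 72.8%).

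Cytokine and NF-kB genes of inflammation were higher in 13 and lower in 2 of 16 (median 0.97), and 6 were higher in every region: Ccl2, Ccl3, Nfkbiz, Nfkb1, Icam1 and Tlr2. At 50 TPM or more 10 of 12 were higher, against 37.3% of all genes there, and 5 were higher in every region, against 7.93%. The chemokine genes Ccl2 (543.03 and 204.7 TPM, 1.40 ± 0.04) and Ccl3 (776 and 310.8 TPM, 1.37 ± 0.23) had like ratios in the regions, and Nfkbiz, a nuclear NF-kB regulator gene, averaged 121.6 and 30.5 TPM (1.94 ± 0.59). Ccl2 was found in 47.7% of 220 (40.97 to 54.5%) Apoe-high and 28 of 76 (36.8%, 26.1 to 48.7%) Apoe-negative cells, and 1 Apoe-high thalamic cell held 28259 TPM, 49.2% of the level of its arm. In the Apoe-negative arms of hippocampus, thalamus and visual cortex 1 cell held 66.8, 90.8 and 54.6% of the Ccl2 level. For Ccl3 these shares were 78.6, 45.1 and 45.9%. Over the alternative settings Ccl2 ran from 0.73 to 3.37 and Ccl3 from 0.82 to 3.40. Icam1, an adhesion molecule gene, averaged 103.7 and 26.5 TPM (2.44 ± 1.65), and the receptor gene Tlr2 48.6 and 14.6 TPM (2.27 ± 2.23). Of the 6, Ccl3 and Nfkbiz were still higher in every region without the highest Apoe-high cell of each gene. By mean log2 values 2 of the 16 were higher in every region, Ccl2 and Nfkbiz, against 3.16% of all genes. By that measure Tlr2 stood at -0.90, Nfkb1 at 0.03 and Ccl3 at 0.16 in hippocampus, and Icam1 at -0.22 in visual cortex. Immediate early genes, which cell dissociation is known to induce, were higher in 7 and lower in 1 of 18 (median 0.44). By mean log2 values 4 of these were higher in every region, Fos, Jun, Junb and Dusp1. Junb averaged 213.8 and 71.5 TPM (1.67 ± 1.04), Jun 594.4 and 391 TPM (0.61 ± 0.08), and Dusp1, a phosphatase gene, 1144 and 600.4 TPM (1.002 ± 0.36). The part of cell handling in these values was not tested.

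Interferon response genes leaned the other way, with 0 higher and 12 lower of 18 and a median of -1.03. Their regional medians were 0.22, -1.76 and -1.66, and the median difference of mean log2 values was -0.10. Ifit3, an antiviral effector gene, averaged 2.46 and 43.6 TPM (-2.82 ± 2.83) and was seen in 5 of 220 and 5 of 76 cells; 1 Apoe-negative cell held 99.7% of the level of its arm in thalamus and 1 held 99.7% in visual cortex. Isg15, a ubiquitin-like modifier gene, averaged 1.79 and 26.2 TPM and was seen in 40 of 220 and 15 of 76 cells. Without the highest cell of each gene in each arm the list's median was 0.11, so its negative sign rested on single cells. The median of all measured genes also rose in that setting, above its main value of 0.57. The list thus still lay below all genes, and only its sign was lost. MHC class II genes were higher in 5 of 7 (median 1.16), 0 of them in every region, and the invariant chain gene Cd74 stood at 5.20, -2.56 and 0.85.

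Among the other lists, heat shock genes were higher in 7 and lower in 0 of 11, cell cycle genes in 13 and 0 of 24, TGF-beta genes in 5 and 2 of 11, macrophage transcription factors in 6 and 2 of 15 and MHC class I genes in 5 and 1 of 12. Trem2 and Tyrobp signalling genes were higher in 4 of 12 and glycolysis genes in 4 of 13. Irf8, a transcription factor gene of microglial development, averaged 276.8 and 130.5 TPM (1.37 ± 1.06). Ribosomal protein genes were higher in 21 and lower in 1 of 78 (median 0.25), yet 29 of 78 were higher in every region by mean log2 values, with a median of 1.06. Higher values by the second measure were thus shared by abundant housekeeping genes.

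**Figure D3:**
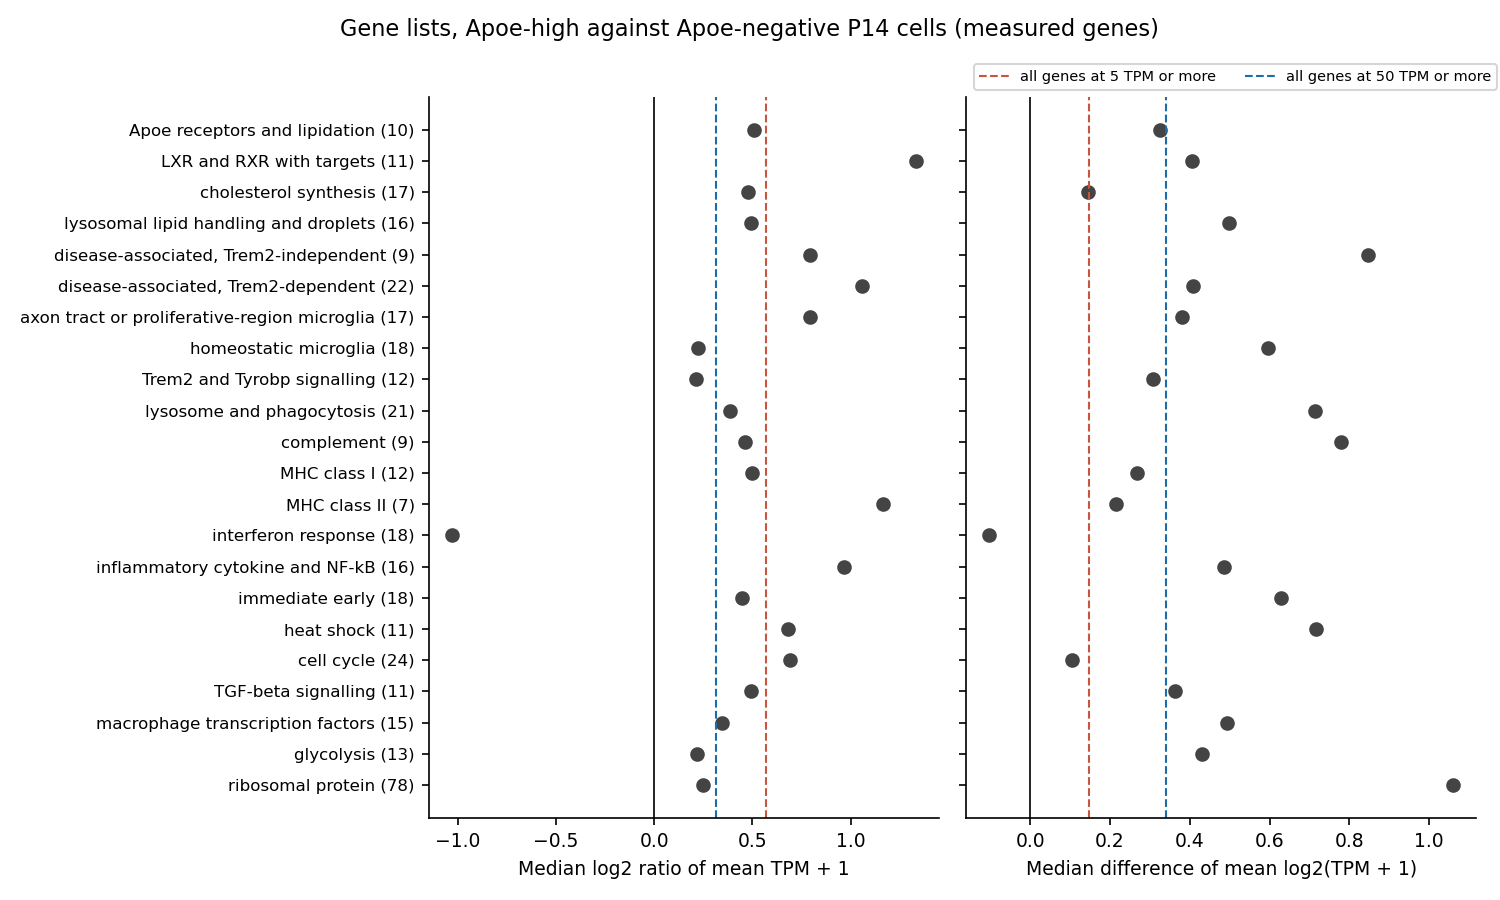
Median over the measured members of each list (number in brackets) of the log2 ratio of means, left, and of the difference of mean log2(TPM + 1), right; dashed lines are the medians of all genes at 5 TPM and at 50 TPM or more. The interferon response list lies lowest on the left at -1.03 and the ribosomal protein list highest on the right at 1.06.

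Genes were also ranked over the whole table by their smallest regional ratio, among those with a mean of 50 TPM in the higher arm, 1 TPM in 25% of its cells in every region and the same sign by both measures in every region. These conditions were met by 391 genes upward and 45 downward. The 12 leading upward were Utp6, Ccdc162, Cd63, Rap1a, Ptgr2, Ninj1, Hipk2, Emg1, Ptplad1, Abcg1, Socs3 and Cct6a. Utp6, a gene of ribosome assembly, averaged 50.5 and 2.79 TPM (3.80 ± 0.39), but was seen in 73 of 220 (33.2%, 26.997 to 39.8%) Apoe-high and 23 of 76 (30.3%, 20.2 to 41.9%) Apoe-negative cells, with 5.91% and 0% of them at 100 TPM or more. Ccdc162 was of the same kind, in 72 of 220 and 21 of 76 cells (4.17 ± 1.38). Socs3, an inhibitor gene of cytokine signalling, averaged 95.3 and 17.6 TPM (2.40 ± 0.53), Ninj1, a membrane protein gene of cell rupture and adhesion, 106.5 and 21.7 TPM (2.22 ± 0.26), and Rap1a, a small GTPase gene, 53.7 and 6.59 TPM (3.003 ± 0.60). Cct6a, a chaperonin subunit gene, averaged 139.8 and 26.8 TPM (2.37 ± 0.75) and Emg1, another gene of ribosome assembly, 122.1 and 24.04 TPM (2.24 ± 0.56). Cd63 and Abcg1 stood first and ninth by the smallest regional difference of mean log2 values.

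The 12 leading downward were Dhrs7b, Ezh2, Cp, Calb1, Zfp157, Clasp1, Iqsec1, Zrsr2, Lman2l, Phkg1, Med13 and Inpp4b. Of these 12, Cp and Zfp157 were still lower in every region without the highest Apoe-negative cell of each gene. The mean ratio of Clasp1 turned to 0.53 within bands of genes per cell, that of Lman2l to 0.39 without the highest Apoe-negative cells and that of Med13 to 0.54 without the second title run of each region. Calb1, which encodes the calcium buffer calbindin, averaged 22395 and 64704 TPM (-1.55 ± 0.16), and Cp, the ferroxidase ceruloplasmin, 2569.8 and 7986 TPM (-1.80 ± 0.28). The Calb1 medians were 1209.8 TPM (0 to 627970) against 1326 TPM (142.8 to 652480) in hippocampus, 1207.3 TPM (0 to 193910) against 1168.3 TPM (0 to 250580) in thalamus and 1130 TPM (90.95 to 453700) against 3142.5 TPM (0 to 469650) in visual cortex. The highest cells of both arms thus stood far above the medians. Calb1, Cp, Pax6 and Smco1 together made up 10% or more of the TPM in 10 of the 76 Apoe-negative and 9 of the 220 Apoe-high cells, and since TPM has a fixed total this lowers all other genes in those cells. Without those cells, an alternative chosen after seeing the data, Cd63 stood at 3.47, Abcg1 at 2.27 and Ctsb at 0.68. Ezh2, a histone methyltransferase gene, averaged 36.001 and 196.2 TPM (-2.32 ± 0.55), with 1 cell holding 99.5% of the level of the hippocampal Apoe-negative arm; without the highest cells its ratio was 0.57. Phkg1, a phosphorylase kinase subunit gene, averaged 43.4 and 111.8 TPM (-1.22 ± 0.26), in 49.1% of 220 and 50 of 76 cells, and Inpp4b, a phosphoinositide phosphatase gene, 132.8 and 296.5 TPM (-1.17 ± 0.43).

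**Figure D4:**
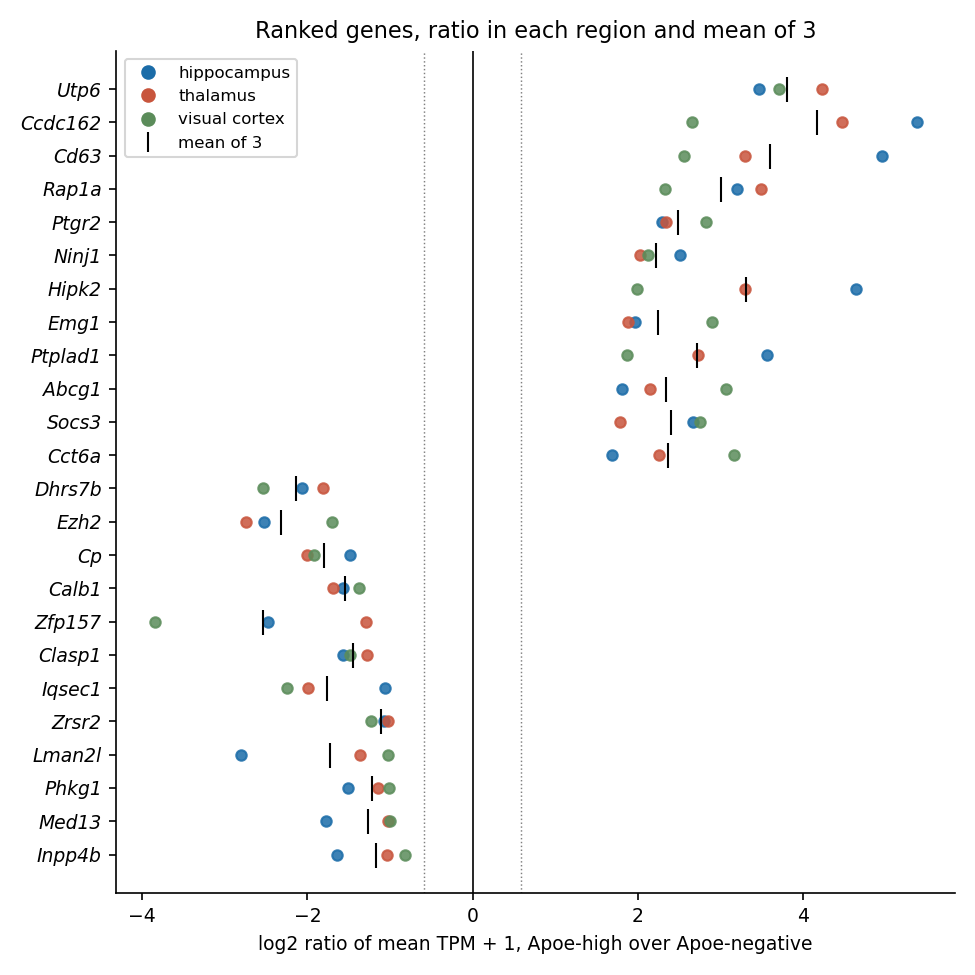
Log2 ratio of mean TPM + 1, Apoe-high over Apoe-negative, of the 24 ranked genes in each region (coloured points) and as the mean of 3 (black bar); dotted lines mark 1.5-fold. Cd63 lies at 4.95, 3.29 and 2.56 and Abcg1 at 1.80, 2.15 and 3.06 in hippocampus, thalamus and visual cortex.

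The same contrast was then read in cells that had not chosen the genes. Paired-end P14 cells of visual cortex, 44 Apoe-high and 81 Apoe-negative, were the closest set. Of the genes higher in every region by the ratio, 35.1% of 1141 measured there were higher again, near the 33.1% of all 10065 genes. Of those higher in every region by mean log2 values, 41.9% of 356 were higher again by that measure and 5.62% lower, against 15.1% and 3.51% of all genes. At 50 TPM or more this share was 47.8%, against 31% of all genes; the reading by mean log2 values was added after seeing the data. Cd63 averaged 715.1 and 338 TPM there, a log2 ratio of 1.08 and a difference of mean log2 values of 2.68. It was seen in 31 of 44 Apoe-high (70.5%, 54.8 to 83.2%) and 34 of 81 Apoe-negative cells (41.98%, 31.1 to 53.5%). Abcg1 averaged 348 and 201.2 TPM (0.79), Trem2 1077 and 754.1 TPM (0.51, and 1.85 by mean log2 values), Serpine2 569.4 and 272.1 TPM (1.06) and Cadm1 56.6 and 7.18 TPM (2.82). Ctsb differed less, at 1672 and 1415.3 TPM (0.24). The ratios of Abca1, at 58.8 and 91.1 TPM (-0.62), and C3ar1, at 133.3 and 240.4 TPM (-0.85), went the other way, and Calb1 was listed at 0 in both arms. Of the Trem2-dependent list 11 of 19 were higher and 1 lower (57.9% and 5.26%, against 33.1% and 35.9% of all genes), while inflammatory genes split into 6 higher and 5 lower of 17 and Ccl2 stood at 0.19. Paired-end cells of P7 visual cortex gave 10 cells in each arm. There 46.1% of the genes higher by the ratio were higher again, against 44% of all genes. By mean log2 values 49.5% were higher and 26.6% lower, against 38.3% and 32.7% of all genes. Cd63 averaged 2386.1 and 647 TPM in these P7 cells (1.88) and Abcg1 166.2 and 198.5 TPM (-0.25).

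Adult cells gave other values. Apoe-high cells made up 30.3% of adult hippocampal (20 of 66), 19.2% of adult thalamic (19 of 99) and 16.3% of adult whole-brain cells (36 cells). Their median number of genes was 47.1, 90.2 and 95.2% of that of the Apoe-negative cells. The genes higher in every P14 region by the ratio were higher again in 35.5, 27.8 and 27.4% of cases, against 34.7, 26.9 and 25.6% of all genes. By mean log2 values, the genes higher by that measure at P14 were higher again in 13.1, 18.2 and 19.2% of cases and lower in 54.3, 40.4 and 12.2%. Of all genes 14.5, 12.9 and 6.48% were higher and 43.4, 23.6 and 6.12% lower by that measure. In adult hippocampus and thalamus these genes were thus lower more often than higher. In adult hippocampus, thalamus and whole brain Cd63 stood at 0.77, 1.15 and -0.73 and Abcg1 at -2.02, -0.20 and 0.03. Apoe-high cells of adult hippocampus and thalamus had more of the mannose receptor gene Mrc1, a border-associated macrophage marker. It averaged 458 and 4.61 TPM in Apoe-high and Apoe-negative cells of hippocampus and 64.3 and 0.279 TPM in thalamus. The same Apoe-high cells had less P2ry12, at 778 and 7973 TPM and 1643 and 5231 TPM. In the P14 cells Mrc1 averaged 82.7 and 89.2 TPM (-0.12 ± 1.37), with regions in opposite directions. Dab2, another such marker, averaged 47.6 and 66.9 TPM (0.73 ± 2.93), and the glutamate transporter gene Slc1a3, the only astrocyte marker measured, 146.2 and 61.3 TPM (1.57 ± 1.14). At P14 the ratio of Cd63 was 3.58 without the cells with 2 border-associated macrophage markers.

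**Figure D5:**
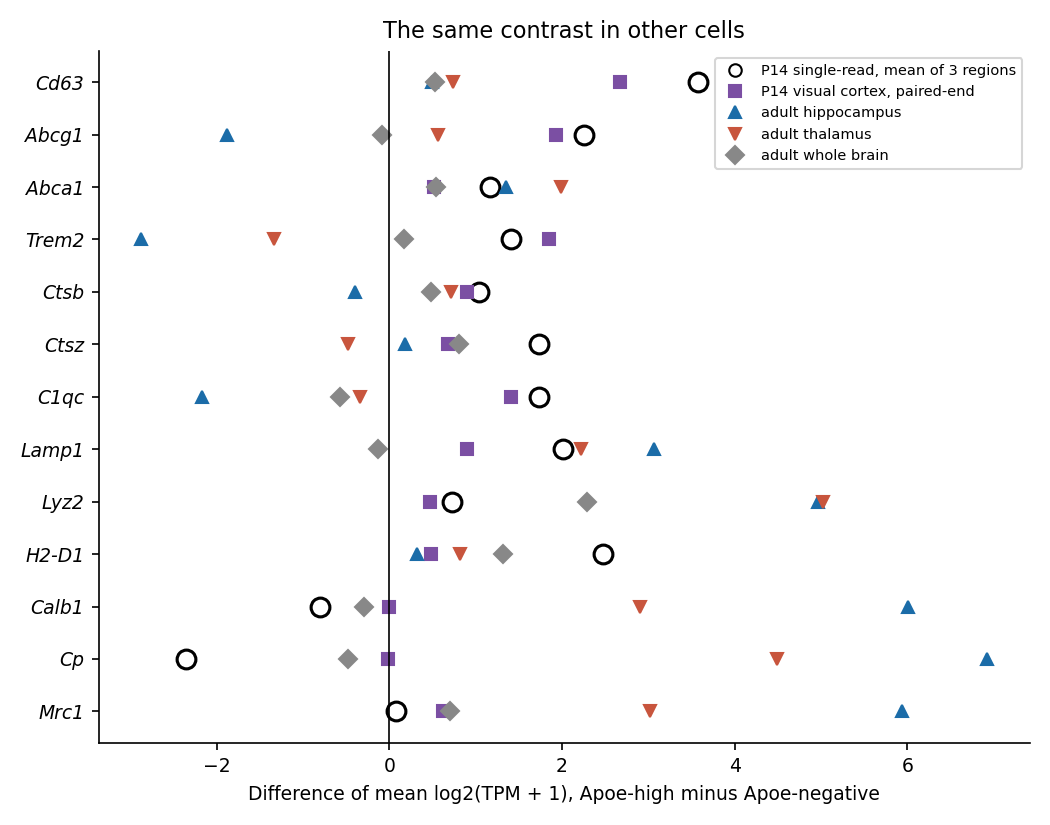
Difference of mean log2(TPM + 1), Apoe-high minus Apoe-negative, of 13 genes in the P14 cells (open circles, mean of 3 regions) and in 4 other sets of cells. Cd63 lies above 0 in all 5 by this measure, while its ratio of means was below 0 in adult whole brain. Mrc1 lies at 0.07 at P14 and at 5.94 and 3.02 in adult hippocampus and thalamus. The P7 cells are not shown.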

How the data were processed

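Single macrophages were sorted from mouse brain and made into Fluidigm C1 and Nextera XT libraries, per the labels' protocols. The authors deposited 1 table in TPM over 43280 genes; column sums ran from 996167 to 1000000, so depth is unknown and no reads per cell can be given. RSEM 1.2.19, Seurat and GRCm38 are named in the submitters' processing notes, and the aligner, the annotation and the filters were not given in the sources used here. Columns of 1169 of the 1617 cells were read and 448 were not used. Groups came from the ages, regions and read layouts in the labels. The members and the gene lists were chosen with earlier results of these data known.

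Apoe-high cells (100 TPM or more) were compared with Apoe-negative cells (below 1 TPM) within a region as log2((mean TPM + 1)/(mean TPM + 1)), and ratios were averaged over 3 regions. The pseudocount of 1 TPM makes ratios of low genes too small. A TPM total is fixed, so a gene that fills much of a cell lowers the others. No p-value was made, because cells of unnamed animals are not replicates. The computation was tested on simulated data, drawn for genes at 50 TPM or more that were often seen and without dominant single cells. That test does not cover sparse genes whose level rests on single cells. Shares of cells have exact Clopper-Pearson 95% intervals. Doublets were not called, and genes on opposite strands that overlap cannot be told apart.

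The text names the 12 genes leading in each direction by the ranking described in the report, leaving out Xist, pseudogenes and Y-linked, predicted, ribosomal protein and mitochondrial genes. It adds up to 4 members per list with a mean of 20 TPM in the higher arm and the largest ratios, the Apoe neighbours Apoc1, Apoc2, Apoc4 and Tomm40, and Trem2, Lrp1, Abca1 and Abcg1. Some genes are not reported here. All other genes were named after their values were seen, such as Tyrobp, P2ry12, Sall1, Cd9, Spp1, Lpl, Itgax, Clec7a, Igf1, Gpnmb, Axl, Cst7, Pvrl2, Mylip, Ctsd, Cd68, Serpine2, C1qa, C1qb, Ccl2, Ccl3 and Dusp1. Alternatives changed the pseudocount, the filter, the measure, the Apoe limits, the scaling and the cells, runs or regions left out. The tools were scipy 1.17.1, pandas 2.3.3, numpy 2.4.6 and matplotlib 3.10.9 under Python 3.11.15.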

Additional observations from a re-analysis of the deposited data

Results flagged for a closer look

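The 6 genes Apoc1, Cd74, Isg15, Dab2, Mrc1 and Cd9 had ratios of 1.5-fold or more in opposite directions in separate regions; the difference between regions was not tested. The log2 ratio of Apoc1 was 4.66 in thalamus and -3.27 in visual cortex, and that of Cd74 5.20 in hippocampus and -2.56 in thalamus. Isg15 stood at 1.06 in hippocampus and -4.27 in visual cortex, and Dab2 at 3.84 in hippocampus and -1.97 in visual cortex. Mrc1 stood at 1.42 in visual cortex and -1.20 in hippocampus, and Cd9 at 0.84 in visual cortex and -1.38 in thalamus. Some of these directions were lost without 1 cell. Leaving out the highest cell of 1 arm can only lower the mean of that arm, and it shifted genes in general. The median over all measured genes was 0.57. It was 1.83 without the highest Apoe-negative cell of each gene and -0.08 without the highest Apoe-high cell. Without the highest Apoe-negative cell of each gene, Cd9 stood at -0.05 in thalamus, Isg15 at 0.12 in visual cortex and Apoc1 at 1.92 in visual cortex, so that none of these 3 was 1.5-fold lower there, while Cd74 stood at -1.73 in thalamus, Dab2 at -1.33 in visual cortex and Mrc1 at -0.69 in hippocampus. Without the highest Apoe-high cell, the upward values were 4.15 for Apoc1, 2.71 for Cd74, 0.84 for Isg15, 3.47 for Dab2, 1.19 for Mrc1 and 0.64 for Cd9.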

How the results depend on the processing

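Of all measured genes 49.6% were higher and 14.02% lower over regions, and 12.2% higher and 1.75% lower in every region, and these shares moved with the measure. A pseudocount of 10 TPM gave 31.3% higher, 6.01% higher in every region and 0.808% lower in every region. Measuring at 50 TPM gave 37.3, 13.4, 7.93 and 2.49% in the first order, and the difference of mean log2 values 12.9, 1.03, 3.16 and 0.119%. Without the highest cell of each gene in each arm 3.63% were lower, 25.7% higher in every region and 0.347% lower in every region, and within bands of genes per cell 5.80, 19.1 and 0.341%. Without the highest Apoe-high cell of each gene alone the 4 shares were 24.5, 32.2, 3.77 and 5.32%, and without the highest Apoe-negative cell alone 85.02, 0.740, 41.4 and 0.0595%. With negative cells below 10 TPM of Apoe 6.81% were higher in every region. With regions pooled, where 1 value stands for every region, 38.5% were higher and 22.3% lower. Within title runs 8.97% were lower and 0.840% lower in every region, and without the second title runs 1.09% were lower in every region. Where a region is left out only 2 must meet the condition: 22.4 and 7.15% were higher and lower in both without hippocampus, 23.5 and 6.05% without thalamus, and 26.3 and 5.22% without visual cortex. Of all calls 77.97% were higher, and 92.6% by mean log2 values, 95.2% without the highest cells, 91.3% within bands of genes per cell, 63.8% with negative cells below 10 TPM, 43.2 and 99.1% without the highest Apoe-high or Apoe-negative cells and 63.3% pooled.

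Some directions reversed, and beyond the construction of each setting the cause was not tested. The interferon response median was 0.23 at 50 TPM and 0.11 without the highest cells, and the MHC class II median -0.025 without hippocampus. Without the highest cells Ezh2 stood at 0.57, Isg15 at 0.12 and Clec7a at 0.65. Clec7a also stood at 0.78 in cells with 1000 or more genes, 0.26 within title runs, 0.29 without the first title runs and 0.73 without cells under 1000 genes or with 10% or more in Calb1, Cp, Pax6 and Smco1. Clasp1 stood at 0.53 within bands of genes per cell, Lman2l at 0.16 without the first title runs and Med13 at 0.54 without the second. Dab2 stood at -0.10 without cells with 2 border-associated macrophage markers, -0.98 pooled and -0.83 without hippocampus. Lrp1 stood at -0.085 with negative cells below 10 TPM. Apoc1 stood at -0.20 pooled and -0.33 without thalamus, and Cd74 at -0.89 pooled, -0.85 without hippocampus and -0.51 without the third title runs. Without the highest Apoe-high cells alone the MHC class II median was -0.18, Apoc1 stood at -0.25, Cd74 at -0.18 and Dab2 at -0.039. Without the highest Apoe-negative cells alone the interferon response median was 0.76, and Ezh2 stood at 1.25, Lman2l at 0.39, Ifit3 at 1.04, Isg15 at 0.36 and Clec7a at 1.18. Cd63, Abcg1, Abca1, Trem2 and Ctsb kept their direction in every setting run, as did Utp6, Ccdc162, Igf1 and other named genes. All these settings used the P14 cells that had chosen the genes. In some of the other cells read above, the ratios of Abca1 and Abcg1 went the other way.

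The alternatives without Calb1, Cp, Pax6 and Smco1, without the cells they fill, or without the highest cell of 1 arm alone, were chosen after seeing the data. Taking Apoe-negative cells at exactly 0 gave the same cells. P7 hippocampus and thalamus and adult visual cortex had fewer than 10 cells in an arm and were not compared. No paired analysis was possible because the labels carry no replicate numbers and name no animals. Depth per cell is unknown, and a value of 0 does not show that the transcript is absent.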
